A study of Mus musculus with 6 samples.

Results

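Acetylcholine is made, loaded into vesicles, released, broken down and sensed by a small set of gene products, and 10 of their genes were read here in dorsal root ganglia (DRGs), the ganglia that hold the cell bodies of sensory neurons. They are the 5 muscarinic receptor genes (Chrm1, Chrm2, Chrm3, Chrm4 and Chrm5), the 2 cholinesterase genes (Ache and Bche), the synthetic enzyme gene Chat and the transporter genes Slc5a7 and Slc18a3. They were taken by gene symbol from the deposited table, and 10 of 10 were found among 24623 genes tested. LBP, the polysaccharides of wolfberry (Lycium barbarum), was given by mouth at 100 mg/kg for 13 consecutive days to adult male wild-type C57BL/6 mice of 8 to 12 weeks, and control mice of the same strain, sex and age received the vehicle PBS. The treatment protocol that accompanies the control samples mentions LBP alone, and the titles and treatment labels, which give PBS, were followed. RNA of the L4/5 DRGs was read on 3 LBP and 3 PBS arrays of the type Mouse Gene 2.0 ST. The methods describe ganglia from 3 sets of mice with 3 mice each and do not say outright whether an array pools several animals, so that p-values measure the spread between these arrays.

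In a cholinergic neuron, choline acetyltransferase joins choline to an acetyl group, a vesicular transporter loads the product into synaptic vesicles, and esterases outside the cell split it again so that choline can be taken back up. Released acetylcholine acts on nicotinic receptors, which are ion channels, and on muscarinic receptors, which signal through G proteins. Receptors M1, M3 and M5 act mainly through Gq and phospholipase C, and M2 and M4 through Gi/o, which lowers cyclic AMP and opens potassium channels. Sensory neurons are mostly glutamatergic, and muscarinic receptors, M2 among them, are known on their cell bodies and endings. The study also worked with glycopyrrolate, a drug that blocks muscarinic receptors.

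Values are log2 intensities as the authors deposited them, so that a difference of 1 is a doubling of signal. The median of an array lay between 6.45 and 6.46, and 2 arrays correlated across genes at 0.990 to 0.994. Brightness on an array also depends on each gene's probes, so that levels of single genes are not compared as amounts of RNA. Percentiles, quartiles and a dim reference are given only to place a signal among those of the arrays. Of 21 markers of sensory neurons, 0 had a mean under the lower quartile of the arrays (5.04 to 5.05), and their mean lay at 10.35 to 10.50 on LBP arrays and at 10.37 to 10.51 on PBS arrays. Of these markers 12 had a higher and 9 a lower mean after LBP (median log2 fold change 0.02), and Ret (-0.30) and Scn11a (-0.24) were lower at an unadjusted p under 0.05 by the limma fit described next. LBP replicate 2 stood apart in markers of the central nervous system, whose mean was 6.49 there, 5.56 to 5.62 on the other LBP arrays and 5.53 to 5.59 on PBS arrays. Each gene was fitted with limma, which borrows information on the spread from all genes, and adjusted p-values (Benjamini-Hochberg) run over all 24623 genes. A single gene tested by exact permutation of the 3 LBP arrays and 3 PBS arrays cannot reach a two-sided p below 0.1.

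Slc5a7 and Chrm5 had lower values in LBP-treated DRGs on every array than on any PBS array, and the other 8 genes overlapped between the groups. Slc5a7 encodes the high-affinity choline transporter that returns choline to cholinergic endings, and Chrm5 the M5 receptor. Both had an unadjusted limma p under 0.05, which 4.72% of all genes had. Among all genes, 2.65% had such a p with a lower value after LBP, as 2 of the 10 genes did, and 2.07% with a higher value, as 0 of the 10 genes did. At an adjusted p under 0.05, limma called 0 of the 10 genes and 0.00812% of all genes. The groups of arrays did not overlap for 2 of the 10 genes, both lower after LBP, against 9.63% of all genes in either direction and 5.28% of all genes lower after LBP. The mean was higher after LBP for 4 of the 10 genes and lower for 6, and the median of their log2 fold changes was -0.08. Over all genes the mean was higher for 12232 and lower for 12391, and the median was -0.0011.

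**Figure D1:**
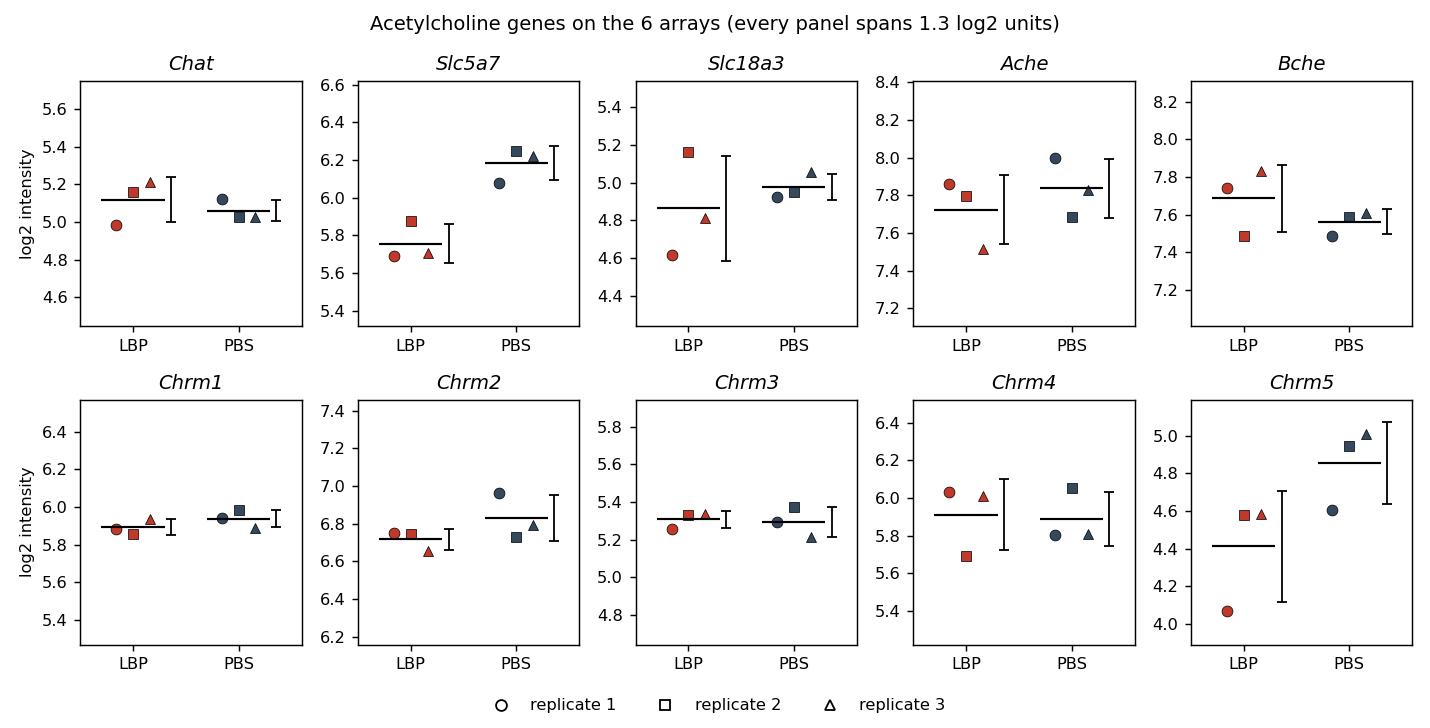
Log2 intensity (vertical axis, every panel spanning 1.3 log2 units) of the 10 genes on the 3 LBP arrays (red) and the 3 PBS arrays (dark blue), with symbols for the replicate number. Horizontal lines are group means and the bars beside them 1 SD. The groups stand apart for Slc5a7 (LBP 5.69 to 5.88, PBS 6.08 to 6.25) and by a narrow gap for Chrm5 (LBP 4.07 to 4.58, PBS 4.60 to 5.01).

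Slc5a7 log2 intensity was 5.69, 5.88 and 5.70 on LBP replicates 1, 2 and 3, and 6.08, 6.25 and 6.22 on PBS replicates 1, 2 and 3. The highest LBP array lay 0.20 below the lowest PBS array. The group means were 5.76 ± 0.10 on LBP arrays and 6.18 ± 0.09 on PBS arrays (SD, n = 3 arrays each). The log2 fold change was -0.43 (standard error 0.10, 95% interval -0.65 to -0.20), a linear ratio of 0.744. By limma the unadjusted p was 0.00191 (exact permutation p = 0.1), which placed Slc5a7 at rank 52 of 24623 genes, and the adjusted p was 0.870. Of the 10 genes, 1 lay under the unadjusted p of 0.005 that defined the LBP signature (Slc5a7), as did 0.483% of all genes, 0.296% with a lower value. Slc5a7 lay at percentile 41.7 of all genes by mean intensity, so that the alternative that leaves out dim genes, the lower part of the table, removes it, and 0 of the 10 genes then have an unadjusted p under 0.05. As a dim reference, 1119 olfactory receptor genes had a 95th percentile of mean log2 intensity of 5.73. The Slc5a7 values of LBP replicates 1 and 3 lay under it. Of these olfactory receptor genes, 3.22% had a mean at or above the Slc5a7 mean over all arrays. In whole ganglia, fewer cells of a type and less RNA per cell cannot be told apart.

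The window around the annotated start of Slc5a7 is shown with those of Chat and Slc18a3, the other genes of acetylcholine synthesis and loading, so that the choline transporter can be read beside them. The sequences run 5′ to 3′ from 250 bases before the start to 50 bases after it, from RefSeq on GRCm38.p6, which gave a window for 9 of the 10 genes (Chrm1 had none). Capitals mark motifs searched on both strands, which were CACGTG (the E-box bound by clock proteins), ACGTG (inside CACGTG, and the core of hypoxia response elements), TGACGTCA (the cyclic AMP response element), GGGCGG (the GC box), CCAAT and TATAAA.
Slc5a7 promoter, chr17:54298985-54299284, minus strand: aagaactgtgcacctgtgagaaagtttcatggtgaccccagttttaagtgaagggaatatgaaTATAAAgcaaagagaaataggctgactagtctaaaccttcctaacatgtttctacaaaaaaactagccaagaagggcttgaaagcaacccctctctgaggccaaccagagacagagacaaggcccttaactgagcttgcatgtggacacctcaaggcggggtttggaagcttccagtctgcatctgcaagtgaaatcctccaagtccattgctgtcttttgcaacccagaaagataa
Chat promoter, chr14:32465860-32466159, minus strand: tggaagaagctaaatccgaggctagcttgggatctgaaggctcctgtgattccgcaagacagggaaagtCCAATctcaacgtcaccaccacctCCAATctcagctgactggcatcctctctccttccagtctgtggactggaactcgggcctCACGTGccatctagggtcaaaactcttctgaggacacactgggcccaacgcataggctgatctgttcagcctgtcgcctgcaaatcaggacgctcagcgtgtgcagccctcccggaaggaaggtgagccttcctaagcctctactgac
Slc18a3 promoter, chr14:32464801-32465100, minus strand: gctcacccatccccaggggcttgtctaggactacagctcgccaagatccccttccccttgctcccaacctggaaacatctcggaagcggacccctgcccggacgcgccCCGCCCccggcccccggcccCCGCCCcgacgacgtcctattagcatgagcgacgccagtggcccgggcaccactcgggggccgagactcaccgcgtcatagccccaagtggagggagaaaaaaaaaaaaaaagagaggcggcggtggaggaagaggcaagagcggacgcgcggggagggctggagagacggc
The Slc5a7 window held TATAAA, whose first base is at -187 from the start, and none of the other 5 motifs. Its GC content was 44.7%, with 1 CpG, where the median window of the genome had 52.7% and 7 CpGs. The Chat window held CACGTG and 2 copies of CCAAT, and the Slc18a3 window 2 GC boxes and 27 CpGs. Among 32851 windows in the genome, 13.6% held TATAAA, 7.15% CACGTG, 19.6% ACGTG, 1.79% TGACGTCA, 35.7% GGGCGG and 37.4% CCAAT. A match describes the letters of a window and is not evidence of a bound factor.

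Chat, whose product makes acetylcholine, had log2 intensities of 4.98, 5.16 and 5.21 on the LBP arrays and 5.12, 5.03 and 5.02 on the PBS arrays. The LBP values lay on both sides of the PBS values. The mean was 5.12 ± 0.12 on LBP arrays and 5.06 ± 0.06 on PBS arrays (SD, n = 3 arrays each). Its fold change on the log2 scale was 0.06, with a 95% interval of -0.17 to 0.28 (limma p = 0.575, exact permutation p = 0.6). Of the 6 arrays, 3 had Chat under their own lower quartile, so that the gene was dim here.

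Slc18a3 encodes the vesicular acetylcholine transporter and lies wholly inside Chat in the GRCm38.p6 annotation. Its log2 intensity was 4.61, 5.16 and 4.81 on the LBP arrays and 4.92, 4.95 and 5.06 on the PBS arrays. LBP replicates 1 and 3 were below and LBP replicate 2 above every PBS array. LBP replicate 2 was also the array with raised markers of the central nervous system (mean 6.49), and the highest LBP array for Slc5a7. The part of such tissue in these values was not tested. The log2 fold change was -0.11 (standard error 0.14, 95% interval -0.42 to 0.19, limma p = 0.426, exact permutation p = 0.5). Without LBP replicate 1 it was 0.01, and without LBP replicate 2 it was -0.26, with an unadjusted limma p under 0.05 and an adjusted p of 0.770. Slc18a3 was under the lower quartile on 4 of the 6 arrays.

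Of the enzymes that split acetylcholine, neither reached an unadjusted limma p under 0.05. Ache encodes acetylcholinesterase, the fast enzyme of synapses. Its log2 intensity was 7.86, 7.79 and 7.52 on the LBP arrays and 8.00, 7.69 and 7.83 on the PBS arrays, with LBP replicate 3 below all others. This gave a log2 fold change of -0.11 (standard error 0.13, 95% interval -0.39 to 0.17, limma p = 0.387, exact permutation p = 0.5), and -0.01 without LBP replicate 3.

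Bche encodes butyrylcholinesterase, a broader esterase that glia also make. It read 7.74, 7.49 and 7.83 on the LBP arrays and 7.49, 7.59 and 7.61 on the PBS arrays. LBP replicates 1 and 3 exceeded every PBS array, and LBP replicate 2 lay close to the lowest PBS value. Its log2 fold change of 0.12 (standard error 0.11, 95% interval -0.13 to 0.38, limma p = 0.297, exact permutation p = 0.4) was the highest of the 10 genes. Leaving out single arrays gave 0.05 (without LBP replicate 3) to 0.22 (without LBP replicate 2), none with an unadjusted p under 0.05.

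**Figure D2:**
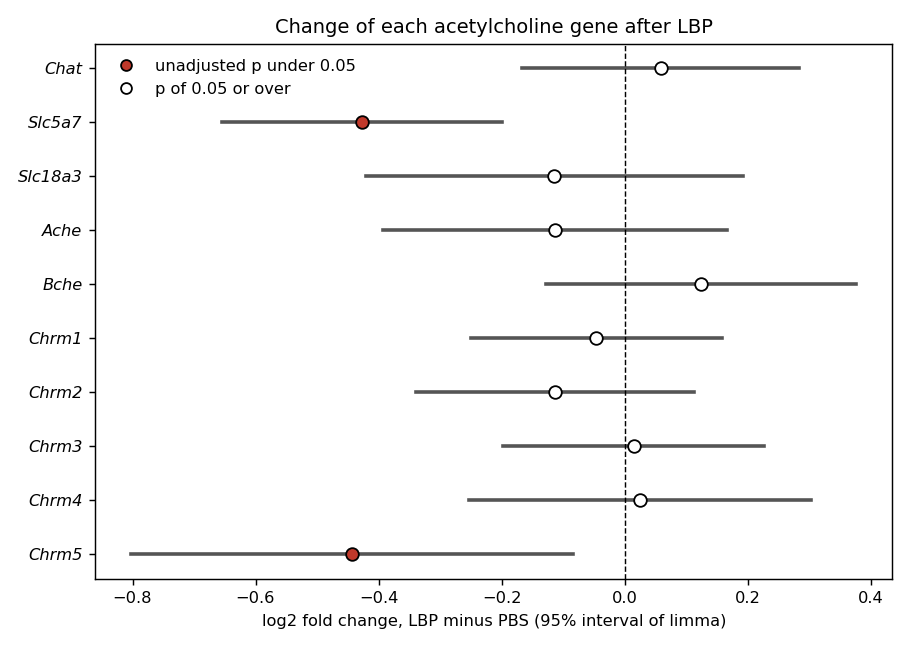
Log2 fold change of LBP minus PBS (points) with the 95% interval of limma (bars) for the 10 genes, those of synthesis and loading at the top and the receptors at the bottom. Filled points have an unadjusted p under 0.05, and the intervals of Slc5a7 (-0.65 to -0.20) and Chrm5 (-0.80 to -0.08) leave out 0.

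Chrm5 had the most negative change of the 10 genes and a dim signal. Its log2 intensity was 4.07, 4.58 and 4.58 on LBP replicates 1, 2 and 3, and 4.60, 4.95 and 5.01 on PBS replicates 1, 2 and 3. The gap between the groups was 0.02, and all 6 values lay under the lower quartile of their arrays. The means were 4.41 ± 0.29 on LBP arrays and 4.85 ± 0.22 on PBS arrays (SD, n = 3 arrays each). The log2 fold change was -0.44 (standard error 0.16, 95% interval -0.80 to -0.08), a linear ratio of 0.736, with a limma p of 0.0207, an adjusted p of 0.999 and an exact permutation p of 0.1. Its spread within groups (0.26) was greater than that of 91.5% of all genes. Leaving out LBP replicate 1 gave a change of -0.27, and leaving out PBS replicate 2 or PBS replicate 3 gave -0.40 or -0.36, each with an unadjusted limma p above 0.05.

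The Chrm5 window is shown because Chrm5 and Slc5a7 were the genes whose groups did not overlap.
Chrm5 promoter, chr2:112480768-112481067, minus strand: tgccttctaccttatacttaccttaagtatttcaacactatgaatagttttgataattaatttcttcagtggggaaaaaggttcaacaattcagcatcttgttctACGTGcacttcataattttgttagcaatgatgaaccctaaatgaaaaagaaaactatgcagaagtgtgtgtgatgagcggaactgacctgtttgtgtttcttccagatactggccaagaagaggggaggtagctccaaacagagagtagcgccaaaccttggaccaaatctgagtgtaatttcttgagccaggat
It held ACGTG, whose first base is at -145 from the start, and none of the other 5 motifs. Its GC content was 39.0%, with 3 CpGs. TATAAA in the Slc5a7 window and ACGTG in the Chrm5 window were thus not shared. In the annotation the Chrm5 gene reaches further upstream than this start and overlaps Aven, an apoptosis inhibitor gene, which averaged 6.44 ± 0.19 on LBP arrays and 6.17 ± 0.19 on PBS arrays (SD, n = 3 arrays each). Aven had a log2 fold change of 0.27, and its unadjusted limma p was above 0.05.

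Chrm1, the M1 receptor gene, had log2 intensities of 5.88, 5.86 and 5.94 on the LBP arrays and 5.94, 5.98 and 5.89 on the PBS arrays. The groups overlapped, and the spread within them (0.04) was among the smallest on the arrays, at percentile 2.24 of all genes. By mean intensity Chrm1 lay at percentile 40.8, and 3.66% of the olfactory receptor genes had a mean at or above its own. On the log2 scale the change was -0.05, with a 95% interval of -0.25 to 0.16 (limma p = 0.626, exact permutation p = 0.2).

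Chrm3, the M3 receptor gene, read 5.26, 5.33 and 5.34 on the LBP arrays and 5.29, 5.37 and 5.21 on the PBS arrays. Its log2 fold change was 0.01 (95% interval -0.20 to 0.23, limma p = 0.880, exact permutation p = 0.7), and every LBP value lay within the PBS range. Chrm3 was dim here, at percentile 29.2 of all genes by mean intensity. Of 1119 olfactory receptor genes, 9.56% had a mean at or above that of Chrm3.

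Chrm2, the M2 receptor gene, read 6.75, 6.75 and 6.65 on the LBP arrays and 6.97, 6.73 and 6.80 on the PBS arrays. All LBP values were below the PBS mean, but 2 of them lay above PBS replicate 2. The fitted log2 change was -0.11 (95% interval -0.34 to 0.11, limma p = 0.290, exact permutation p = 0.3), and -0.05 without PBS replicate 1.

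Chrm4, the M4 receptor gene, read 6.03, 5.69 and 6.01 on the LBP arrays and 5.80, 6.05 and 5.81 on the PBS arrays. The array values of each group lay on both sides of the other group's mean. Its log2 fold change was 0.02 (95% interval -0.25 to 0.30, limma p = 0.846, exact permutation p = 1), and the sign turned when single arrays were left out. By mean intensity Chrm4 lay at percentile 40.5, and 3.84% of the olfactory receptor genes had a mean at or above its own.

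**Figure D3:**
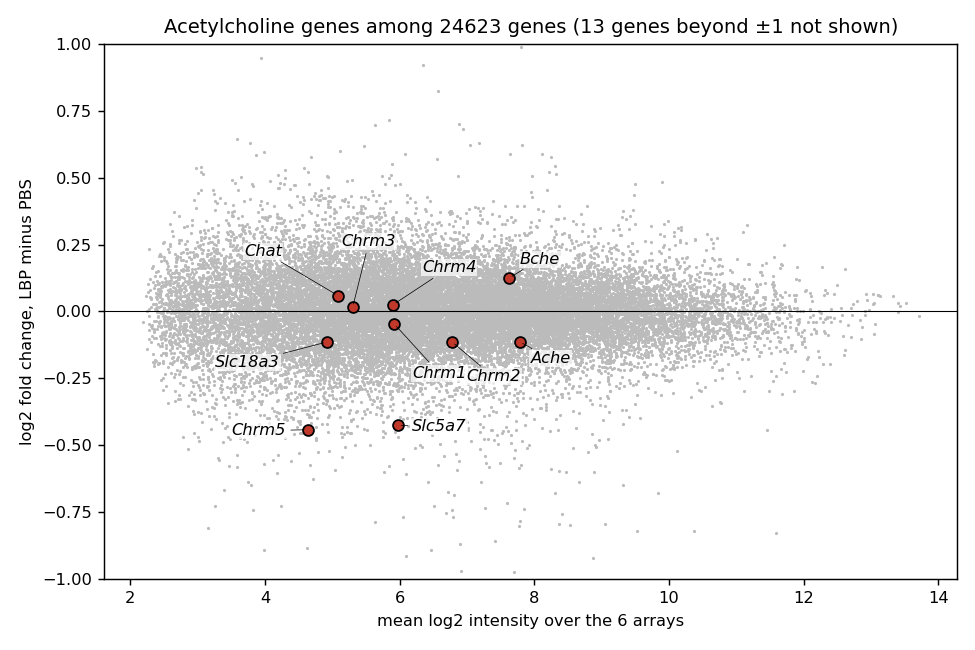
Log2 fold change of LBP minus PBS (vertical axis) against mean log2 intensity over the 6 arrays (horizontal axis) for all 24623 genes (grey), with the 10 acetylcholine genes in red. A total of 13 genes beyond a change of 1 in either direction lie outside the plot. Slc5a7 and Chrm5 sit below most of the cloud, and the other 8 genes lie within it, between -0.11 and 0.12.

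Across the 6 arrays, Slc5a7 and Chrm5 varied together with a Pearson r of 0.85, and Chrm2 and Ache with 0.89. Among the 45 pairs of the 10 genes the lowest r was -0.77, for Chrm4 and Slc18a3. These are descriptions over 6 arrays that share the treatment groups. The genes of the whole table most like Slc5a7 by Pearson r were LOC100862381 (0.99), the immunoglobulin segment Igk-V1 (0.98) and Rbm4b, an RNA-binding protein gene (0.98). Most like Chrm5 were LOC100505256 (0.99), the lysosomal reductase gene Ifi30 (0.99) and G6pc, which encodes glucose-6-phosphatase (0.99). Picking the closest genes of a whole table over 6 arrays yields high r values by itself, so that these show no link.

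Markers of other cell types of the ganglion were read beside these genes. Over the whole table, 4.72% of genes had an unadjusted limma p under 0.05. Of 12 fibroblast markers 11 had a lower mean after LBP (median log2 fold change -0.33). The collagen gene Col3a1 (-0.43), Dpt (-0.40) and Osr1 (-1.15) were lower at an unadjusted limma p under 0.05, with an adjusted p of 0.999 each. The mean log2 intensity of the 12 markers was 8.23 to 8.88 on LBP arrays and 8.78 to 9.24 on PBS arrays, lowest on LBP replicate 1, the array where Chrm5 was lowest too. Slc5a7, Slc18a3 and the markers of Schwann cells (mean 9.38) and macrophages (mean 6.91) were also lowest on LBP replicate 1. The Schwann cell mean was highest on LBP replicate 2 (9.99), against 9.49 to 9.67 on PBS arrays. The macrophage mean reached 7.21 on LBP arrays and ran from 6.96 to 7.28 on PBS arrays. The highest array was PBS replicate 2 for fibroblast markers and PBS replicate 3 for Chrm5. None of the 12 fibroblast markers had a mean under the lower quartile. Of 9 markers of sympathetic neurons, which LBP arrays read at a mean of 5.92 to 5.96 and PBS arrays at 5.96 to 6.04, Th, the enzyme gene of dopamine synthesis and in DRGs also a marker of C-low-threshold mechanoreceptors, was lower (-0.68) at an unadjusted limma p under 0.05. The mean was higher after LBP for 5 of these 9 markers and lower for 4, with a median change of 0.02. Of 9 genes listed for spinal motor neurons, which use Chat and Slc5a7, Calcb, which sensory neurons express too, was lower (-0.31) and Esrrb higher (0.34) at the same threshold. The mean of the 9 genes was 7.72 to 7.77 on LBP arrays and 7.67 to 7.71 on PBS arrays. The brightest were Calcb (11.52 on LBP and 11.83 on PBS arrays) and Prph (11.63 and 11.60), which is also among the sensory neuron markers. The mean is thus not a reading of motor neurons alone. The motor neuron factor genes Mnx1 (4.37 on LBP and 4.02 on PBS arrays) and Lhx3 (4.69 and 4.87) averaged under the lower quartile in both groups. Of 10 markers of satellite glia 6 had a higher mean after LBP (median 0.01), and Cdh19 (0.49) and Kcnj10 (0.29) were higher at an unadjusted limma p under 0.05. Their list mean was 9.73 to 9.78 on LBP arrays and 9.70 to 9.72 on PBS arrays. Markers of skeletal muscle were lower in mean for 8 of 11 (median -0.34) and those of blood higher for 6 of 6 (median 0.22), with 0 at that threshold in either list. The groups overlapped in both list means. For muscle these were 6.03 to 7.22 on LBP and 6.30 to 7.44 on PBS arrays, and for blood 6.54 to 7.24 and 6.52 to 6.76. Among the 21 sensory neuron markers, Ret, Scn11a and Scn10a (-0.14) were lower after LBP without overlap between the groups, as were 5.28% of all genes. The unadjusted limma p of Scn10a was 0.190. The part of these cells in the lower Slc5a7 and Chrm5 values was not tested.

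The other genes around acetylcholine were read from lists named for their roles. Of all genes, 4.72% had an unadjusted limma p under 0.05, 2.65% lower and 2.07% higher after LBP. In lists as short as those here and below, a count of 0 lies near that share. It does not show that a list was unchanged. Of 16 nicotinic receptor subunit genes, Chrna3 (-0.80), Chrnb4 (-0.76) and Chrnb3 (-0.74) were lower at an unadjusted limma p under 0.05 and 0 were higher. Their adjusted p-values were 0.186, 0.282 and 0.186 in that order, the LBP and PBS arrays did not overlap for any of them, and the median change of the list was -0.05. Downstream of M1, M3 and M5, 0 of 19 genes of the Gq arm (G proteins, phospholipases C, inositol trisphosphate receptors, protein kinases C and M-current channels) had an unadjusted limma p under 0.05, the median was -0.01, and the furthest value was 0.18, for the phospholipase gene Plcb1. Downstream of M2 and M4, 0 of 18 genes of the Gi/o arm had an unadjusted limma p under 0.05, with a median of -0.04 and the furthest value at -0.22, for Kcnj5, a subunit of the G protein-gated potassium channel.

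Of 15 receptor kinases, arrestins and RGS proteins, which end receptor signalling, Rgs10 was lower (8.89, 8.51 and 8.99 on the LBP arrays, against 9.10, 9.34 and 8.99 on the PBS arrays). LBP replicate 3 lay just under PBS replicate 3. Its log2 fold change was -0.35, with an unadjusted limma p under 0.05 and an adjusted p of 1.00. RGS10 speeds the switching off of Gi/o proteins.

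Choline supply was read apart from Slc5a7 in 19 genes of the choline transporter-like family, organic cation transporters and choline metabolism. Of these, 0 had an unadjusted limma p under 0.05, the median was 0.05, and the furthest value was -0.20, for the organic cation transporter gene Slc22a3. The lists of 7 esterase anchors and receptor clustering genes (furthest value 0.13, for Dok7) and of 9 Ly6 family modulators and chaperones (furthest value 0.26, for Psca) also had 0 at that threshold. The 15 transcription factor and cytokine genes of cholinergic identity read here had 0 as well, with a median of 0.0043 and the furthest value at 0.35, for Mnx1.

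Of 6 other vesicular transmitter transporters, Slc17a8, the glutamate transporter VGLUT3 of light-touch neurons, was lower. It read 7.15, 6.95 and 6.95 on the LBP arrays and 7.25, 7.51 and 7.58 on the PBS arrays, without overlap. Its log2 fold change was -0.43 with an adjusted p of 0.963, where that of Slc5a7 was -0.43 with an adjusted p of 0.870. No gene of these lists passed an adjusted p under 0.05 by limma.

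**Figure D4:**
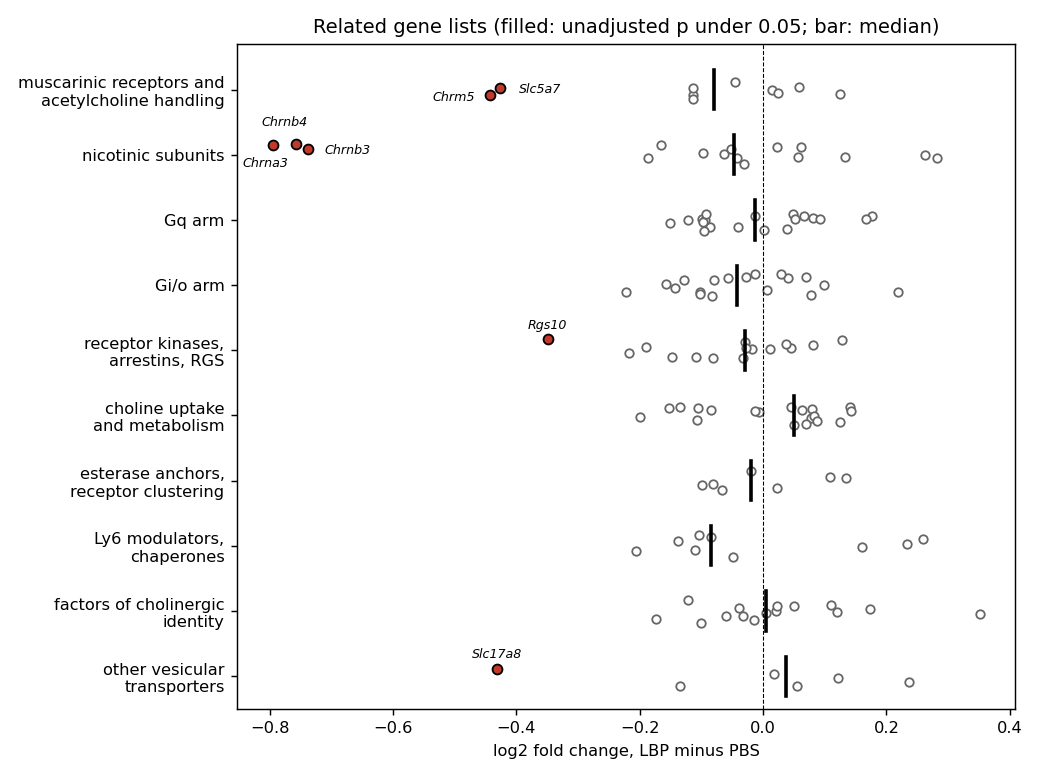
Log2 fold change of LBP minus PBS (horizontal axis) for each gene of the 10 acetylcholine genes (top row) and of 9 related lists, with black bars for the list medians. Filled points have an unadjusted limma p under 0.05 and are named, and list medians lie between -0.08 and 0.05.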

How the data were processed

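RNA of L4/5 DRGs, 3 LBP and 3 PBS samples, was read on arrays of the type Mouse Gene 2.0 ST. Per the methods, the authors pre-processed the arrays in R (expresso, MAS5), omitted outliers by sample correlation and quantile-normalized the data. The deposited log2 intensities hold 1 value for each gene symbol on each array and run from 2.02 to 13.8. Software versions and the genome build were not given in the sources used here. Fold changes and p-values of the authors, and 3 columns that compare single LBP arrays with the controls, were not used. The number of arrays limits the precision.

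Rows with a date in place of a symbol (24 of 24647) were left out. The remaining genes went into limma 3.58.1 (lmFit, eBayes; R 4.3.3), with no factor besides treatment. The prior had 5.90 degrees of freedom, and the script was tested on simulated data. Tests were two-sided, and permutation tests were exact. Alternatives left out single arrays or dim genes, added the replicate number as a block, centred arrays, weighted arrays or changed the variance model. Named genes are the 10 acetylcholine genes, genes of related lists with an unadjusted p under 0.05 (otherwise the furthest value), the 3 genes of highest Pearson r, and markers with such a p where set beside a result. The genes and lists were chosen with earlier results of these data known and are not independent evidence. Of the listed symbols, 2 related genes and 4 markers had no row, and 1 further gene of these lists is not reported here.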

Additional observations from a re-analysis of the deposited data

How the results depend on the processing

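Slc5a7 kept its direction and an unadjusted limma p under 0.05 in each of the 11 alternatives that tested it, with log2 fold changes of -0.49 to -0.39 and adjusted p-values of 0.544 or more. Chrm5 kept its direction in 11 alternatives (-0.57 to -0.27), and without moderation of the variances its p was 0.105. Leaving out single arrays gave 1 to 3 of the 10 genes at an unadjusted p under 0.05, against 3.93% to 6.34% of all genes. It gave 2 to 4 of the 10 genes without overlap between the groups, against 17.2% to 23.3% of all genes. It also gave a median change of -0.0776 to -0.0384 over the 10 genes, and 1 to 2 genes of the whole table at an adjusted p under 0.05. The counts of 3 and 4 were both reached without LBP replicate 2, where the shares of all genes were 6.34% and 23.3%. Of the 10 genes, 3 passed the filter on dim genes (Chrm2, Ache and Bche), which leaves out Slc5a7 and Chrm5. Of these, 0 had an unadjusted limma p under 0.05, and their median change was -0.11. Without moderation 1 of the 10 genes (Slc5a7) had such a p, and over all genes 0 passed the adjustment and 1167 had such a p. The median change was -0.059 with array weights. In the whole table, 4 genes passed the adjustment with array weights and 6 with a trended, robust prior. With the replicate number as a block 4 genes passed, the unadjusted p of Slc5a7 was 0.00274 and that of Chrm5 0.00223. Deviations of same-numbered arrays from their group means correlated at 0.109, -0.03 and 0.08, and not every array correlated best with its own number. With 3 arrays in each group these correlations cannot decide whether same-numbered arrays shared more than a number. None of the 10 genes passed the adjustment in any alternative. Direction turned for genes near 0 when single arrays were left out. Chrm3 ran from -0.0257 (without PBS replicate 3) to 0.0548, Slc18a3 from -0.264 to 0.00992 (without LBP replicate 1), and Chrm4 from -0.0346 (without LBP replicate 1) to 0.135. Chrm4 was also negative without LBP replicate 3, PBS replicate 1 or PBS replicate 3. The cause was not tested.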
